A study of Mus musculus with 6 samples.

Results

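The 7 genes described here, *Fos*, *Fosb*, *Fosl1*, *Fosl2*, *Jun*, *Junb* and *Jund*, encode the Fos and Jun proteins. They were taken by gene symbol from the 55357 genes in the count tables and all 7 were among the 21876 genes tested. Polyadenylated RNA was sequenced from primary cultures of wild-type mouse neurons, prepared from the cortex and hippocampus of C57BL/6N embryos at E18. The cultures had been given lentivirus at 4 days in vitro and were harvested at 14 days in vitro. In 3 libraries (shCtrl) the virus carried a scrambled short hairpin RNA, and in 3 libraries (shPla2g4e) it carried sh2, a hairpin against *Pla2g4e*, the gene of a calcium-dependent N-acyltransferase of membrane phospholipids. Both groups therefore shared the lentiviral vector, which also carries GFP, and differed in the hairpin.

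Several features limit these cultures as a model. Only 1 hairpin sequence against *Pla2g4e* was sequenced, and the virus dose was chosen as the smallest that halved the transcript in real-time PCR. The sources do not state whether the libraries of a group came from separate cultures or animals. The p-values therefore measure the spread between these libraries, which may be technical. The targeted transcript was checked first. *Pla2g4e* stood at 38.0, 35.1 and 35.4 CPM (the read count relative to the TMM-scaled size of the library) in the shCtrl libraries and at 21.8, 14.1 and 18.7 CPM in the shPla2g4e libraries. It was lower in every shPla2g4e library (log2 fold change −0.99, SE 0.13, adjusted p = 1.24e-04 in edgeR's quasi-likelihood test).

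Fos and Jun proteins are basic leucine zipper transcription factors that bind DNA in pairs, as the activator AP-1. Jun proteins can pair with each other or with a Fos protein, whereas Fos proteins need a partner. In neurons several of these genes, above all *Fos*, are immediate early genes: their promoters are held ready and answer synaptic activity, growth factors and calcium without new protein synthesis, and *Fos* RNA is widely used to mark recently active neurons.

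The 4 sequences below are shown because they lie next to the start of members that stood higher in shPla2g4e and hold letters of cyclic AMP and AP-1 elements. They run from 130 bases upstream to the base before the start site of RefSeq, 5′ to 3′ on the strand of the gene, in build GRCm38.p6 (chr12:85473760-85473889 for *Fos*, chr7:19310046-19310175 for *Fosb*, chr4:95052223-95052352 for *Jun* and chr8:84978749-84978878 for *Junb*). Capitals mark TGACG, the first letters of the full cyclic AMP response element, and TGACATCA, a close relative of that element and of the AP-1 site.
Fos: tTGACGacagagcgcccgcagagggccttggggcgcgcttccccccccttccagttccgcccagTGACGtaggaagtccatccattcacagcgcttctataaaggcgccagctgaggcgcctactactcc
Fosb: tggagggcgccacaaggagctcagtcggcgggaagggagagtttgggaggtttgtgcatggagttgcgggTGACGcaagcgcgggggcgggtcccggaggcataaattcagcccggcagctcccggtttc
Jun: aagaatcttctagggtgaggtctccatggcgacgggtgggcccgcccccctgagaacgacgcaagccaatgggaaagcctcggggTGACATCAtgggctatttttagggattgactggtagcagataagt
Junb: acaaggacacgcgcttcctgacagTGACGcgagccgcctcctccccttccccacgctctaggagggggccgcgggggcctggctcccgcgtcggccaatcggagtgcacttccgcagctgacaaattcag

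The letters TGACG were searched on both strands over 300 bases, from 250 upstream to 50 downstream of each RefSeq start. *Fos* held them at 2 places, from −129 to −125 and from −66 to −62, *Fosb* from −60 to −56, and *Junb* from −106 to −102. They occur in 20.8% of the 32851 windows of all genes in the same table, the full element TGACGTCA, which contains them, included. *Jun* held TGACATCA from −45 to −38, which 3.62% of all windows hold, and a match to the MEF2 site, searched by its consensus, from −33 to −24, which 0.557% of all windows hold. Of the 7 members 6 had a window in the table. No window of the 6 held the full element TGACGTCA, present in 1.79% of all windows, the AP-1 site TGACTCA, present in 5.2%, or a CArG box, the binding site of serum response factor, present in 1.63%. The windows of *Fosl2* and *Jund* held none of these motifs, but the RefSeq start of *Jund* lay 1210 bases and that of *Fosl2* 671 bases from the GENCODE vM21 start, so their windows may miss the region in use. For *Junb* the RefSeq and GENCODE vM21 starts lay 30 bases apart and for *Fosb* 6 bases, so positions there depend on the start taken. Bases more than 250 upstream of a start were not searched, so a motif absent from a window, such as the CArG box, may lie outside it. These matches describe the letters and were not tested as binding sites.

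Of the 7 members, 4 rose in shPla2g4e and 0 fell, by edgeR's quasi-likelihood test, with 0 lower also in limma-voom, in DESeq2 and at an unadjusted p under 0.05. *Fosb* rose most (log2 fold change 0.88), followed by *Jun* (0.67), *Fos* (0.53) and *Jund* (0.52). *Junb* stood 0.37 higher on the log2 scale without passing the test, *Fosl2* differed by less than its spread, and *Fosl1* was close to the limit of detection. A gene was called at an adjusted p under 0.01. By that rule 6.49% of the 21876 genes tested were called, 2.48% higher and 4.004% lower, against 4 of the 7 members. Among genes with a mean log2 CPM of 3 or more, where 6 of the 7 members lie, 11.1% were called in either direction. The median log2 fold change was 0.52 over the members and 0.03 over all genes tested. In 5 members the libraries of the groups did not overlap, as they did not for 30.03% of all genes. In bulk RNA, a change in the number of cells of a type and a change in RNA per cell cannot be told apart.

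**Figure D1:**
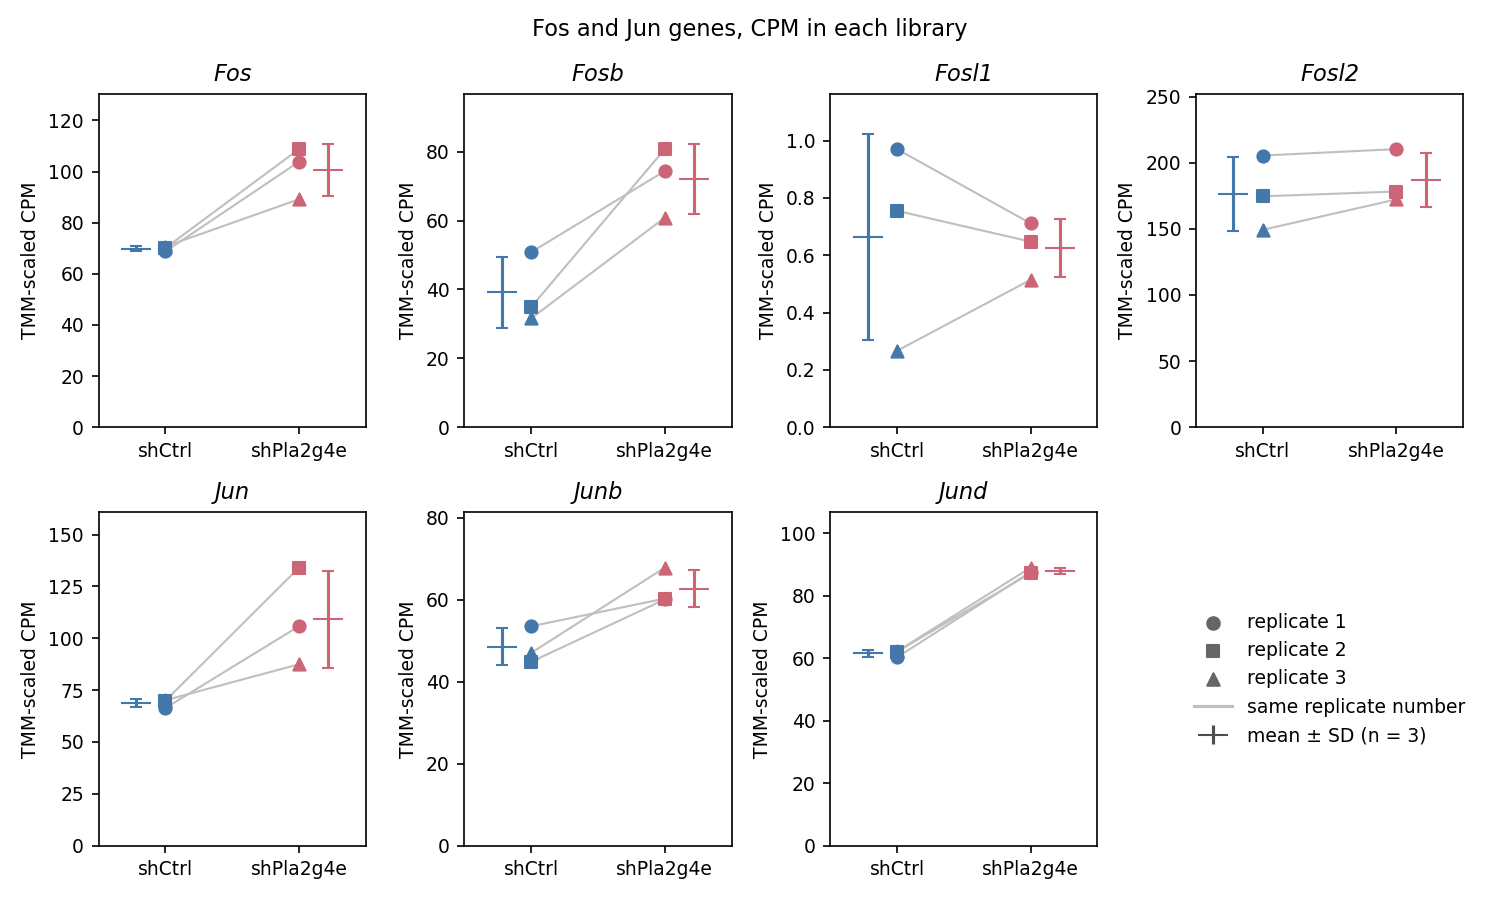
TMM-scaled CPM (vertical axes, from 0) of the 7 genes in each of the 3 shCtrl (blue) and 3 shPla2g4e (red) libraries, with the mean ± SD of each group beside the points. Grey lines join libraries with the same replicate number. All 3 shPla2g4e libraries lie above all 3 shCtrl libraries for *Fos*, *Fosb*, *Jun*, *Junb* and *Jund*, and the groups overlap for *Fosl1* and *Fosl2*.

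Among the Fos genes, *Fos* (GRCm39, chr12:85520664-85524047, + strand) encodes the founding member, whose protein is unstable and usually present only briefly after a stimulus. It stood at 68.7, 70.1 and 70.7 CPM in shCtrl replicates 1 to 3 and at 104, 109 and 89.2 CPM in shPla2g4e replicates 1 to 3. The shCtrl libraries were nearly equal, and the lowest shPla2g4e library, replicate 3, was still above all of them. Averaged over the libraries, *Fos* stood at 69.8 ± 0.998 and 101 ± 10.2 CPM (SD, n = 3 each). The log2 fold change was 0.53 (SE 0.086, 95% confidence interval 0.34 to 0.71, adjusted p = 7.11e-04 in edgeR's quasi-likelihood test). The coefficient of variation over the shCtrl libraries was 1.43%, below the 2.61% that counting error alone gives, and it was 10.1% over the shPla2g4e libraries, where counting error gives 2.17%.

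*Fosb* (chr7:19036621-19043976, − strand) also encodes ΔFosB, a truncated protein that is stable and builds up under repeated stimulation. The counts are per gene and do not separate the transcripts. *Fosb* stood at 50.8, 34.9 and 31.6 CPM in the shCtrl libraries and at 74.4, 80.8 and 60.8 CPM in the shPla2g4e libraries. The shCtrl libraries were uneven, replicate 1 being the highest, and the groups did not overlap. The averages were 39.1 ± 10.3 and 72 ± 10.2 CPM (SD, n = 3 each), the largest change of the family (log2 fold change 0.88, SE 0.15, 95% confidence interval 0.57 to 1.19, adjusted p = 7.49e-04 in edgeR's quasi-likelihood test). With edgeR's robust fit, which lets genes with an unusual spread keep more of it, the call was lost (adjusted p = 0.0247).

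*Fosl2* (chr5:32293145-32315186, + strand) encodes Fra-2, a Fos protein without the activating end of Fos. It gave the most reads of the family, with 205, 175 and 149 CPM under the scrambled hairpin and 210.4, 178 and 172 CPM under sh2. Both groups spread widely and overlapped, and within each group replicate 1 was highest and replicate 3 lowest. The log2 fold change was 0.08 (SE 0.11, 95% confidence interval −0.15 to 0.31, adjusted p = 0.698 in edgeR's quasi-likelihood test). The interval leaves out a rise as large as the estimate for *Fos*. Within a library the log2 ratio of *Fos* to *Fosl2* reads was −1.33 ± 0.25 in shCtrl and −0.89 ± 0.16 in shPla2g4e (SD, n = 3 each), with no overlap, a ratio given as a description without a test.

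*Fosl1* (chr19:5497575-5505974, + strand), the gene of Fra-1, was nearly silent. It gave 20, 15 and 6 reads in the shCtrl libraries and 17, 14 and 9 reads in the shPla2g4e libraries. Its averages were 0.66 ± 0.36 and 0.62 ± 0.10 CPM (SD, n = 3 each). Its log2 fold change of −0.07 had a 95% confidence interval from −1.22 to 1.08, and a change in either direction was not detectable at this depth (adjusted p = 0.958 in edgeR's quasi-likelihood test). The sign of the estimate also turned under 5 alternative settings. In the annotation, 57.2% of its exon bases overlap *Ccdc85b* on the opposite strand.

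Among the Jun genes, *Jun* (chr4:94937271-94940459, − strand) encodes c-Jun, the classical substrate of JNK. It stood at 66.4, 69.9 and 70.2 CPM in the shCtrl libraries and at 106, 134 and 87.5 CPM in the shPla2g4e libraries. The shCtrl libraries were close together and the shPla2g4e libraries were spread out, with replicate 2 highest and replicate 3 lowest, still without overlap. On average it stood at 68.8 ± 2.12 and 109 ± 23.5 CPM (SD, n = 3 each). The log2 fold change was 0.67 (SE 0.12, 95% confidence interval 0.42 to 0.92, adjusted p = 0.00133 in edgeR's quasi-likelihood test).

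*Junb* (chr8:85701113-85705347, − strand) encodes a Jun protein that can oppose Jun at some promoters. It stood at 53.6, 44.9 and 47.1 CPM in the shCtrl libraries and at 60.3, 60.1 and 67.9 CPM in the shPla2g4e libraries. All shPla2g4e libraries were higher, by a smaller margin than for the other Jun genes, and replicate 3 was here the highest. The log2 fold change was 0.37 (SE 0.092, 95% confidence interval 0.18 to 0.57), and its adjusted p of 0.0133 in edgeR's quasi-likelihood test did not pass. With a replicate block, which treats same-numbered libraries as pairs, it passed (adjusted p = 1.75e-04). That fit called 15.5% of all genes, 6.50% higher and 9.02% lower, and 5 of the 7 members higher.

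*Jund* (chr8:71151599-71153265, + strand) encodes the Jun protein that most cells hold without stimulation. It stood at 60.3, 62.1 and 62.2 CPM in the shCtrl libraries and at 87.6, 87.2 and 89.0 CPM in the shPla2g4e libraries. Both groups were tight and far apart, with a coefficient of variation of 1.72% in shCtrl and 1.09% in shPla2g4e, both below what counting error alone gives (2.78% and 2.33%). The group averages were 61.5 ± 1.06 and 87.9 ± 0.956 CPM (SD, n = 3 each). The log2 fold change was 0.52 (SE 0.076, 95% confidence interval 0.35 to 0.68), with the lowest adjusted p of the family (2.86e-04 in edgeR's quasi-likelihood test). In the annotation 52.6% of its exon bases overlap *Gm11175* on the opposite strand. The counting settings name no strand and drop reads on exons of 2 genes, so reads from that part of *Jund* may be missing. *Gm11175* itself had 0 reads in every library.

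The members that stood higher did not do so by the same amount in each pair of libraries. For libraries of the same replicate number, taken as pairs 1 to 3, the log2 ratio of *Fos* was 0.60, 0.63 and 0.34, that of *Fosb* was 0.55, 1.21 and 0.94, and that of *Jun* was 0.67, 0.94 and 0.32. For *Junb* it was 0.17, 0.42 and 0.53, and for *Jund* 0.54, 0.49 and 0.52. *Fos* and *Jun* were thus least raised in pair 3, *Fosb* and *Junb* in pair 1, and *Jund* was raised alike in all. Of the 3 shPla2g4e libraries, replicate 3 held the lowest *Fos*, *Fosb* and *Jun* and the highest *Junb* and *Jund*.

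Per length, the levels were led by *Jund* and *Fos*. RPKM (CPM divided by the exon length in kilobases) was used to compare genes. In shCtrl, *Jund* had 36.9 ± 0.63 RPKM and *Fos* 29.7 ± 0.42 RPKM, followed by *Jun* with 21.6 ± 0.66, *Junb* with 21.1 ± 1.96 and *Fosl2* with 18.2 ± 2.91 RPKM (SD, n = 3 each). *Fosb* had 6.27 ± 1.65 RPKM and *Fosl1* 0.33 ± 0.18 RPKM. *Jund* ranked first, *Fos* second, *Fosb* sixth and *Fosl1* last in every one of the 6 libraries, while *Jun*, *Junb* and *Fosl2* overlapped in shCtrl. The RPKM of *Jund* and *Fos* were above those of 94.5% and 92.6% of the genes tested, in the shCtrl means.

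In shPla2g4e, *Jund* had 52.7 ± 0.57 RPKM, *Fos* 42.8 ± 4.34, *Jun* 34.2 ± 7.36 and *Junb* 27.3 ± 1.92 RPKM. *Fosl2* had 19.3 ± 2.11 RPKM, *Fosb* 11.5 ± 1.63 and *Fosl1* 0.31 ± 0.05 RPKM. *Jun* now overlapped both *Fos* and *Junb*, and all libraries of *Fosl2* lay below all of *Junb*. The sum over the 7 genes was 139, 132 and 130.4 RPKM in the shCtrl libraries and 190.1, 198 and 176 RPKM in the shPla2g4e libraries, without overlap. Of that sum *Fosl2* made up 13.6% in shCtrl and 10.3% in shPla2g4e, and *Fosb* 4.65% and 6.11%. *Jund* made up 27.6% and 28.1%, and *Fos* 22.2% and 22.7%. Where only the exon bases that no other gene shares were taken as the length, *Jund* rose to 43.6% of the sum in shCtrl and 44.2% in shPla2g4e and stayed first.

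**Figure D2:**
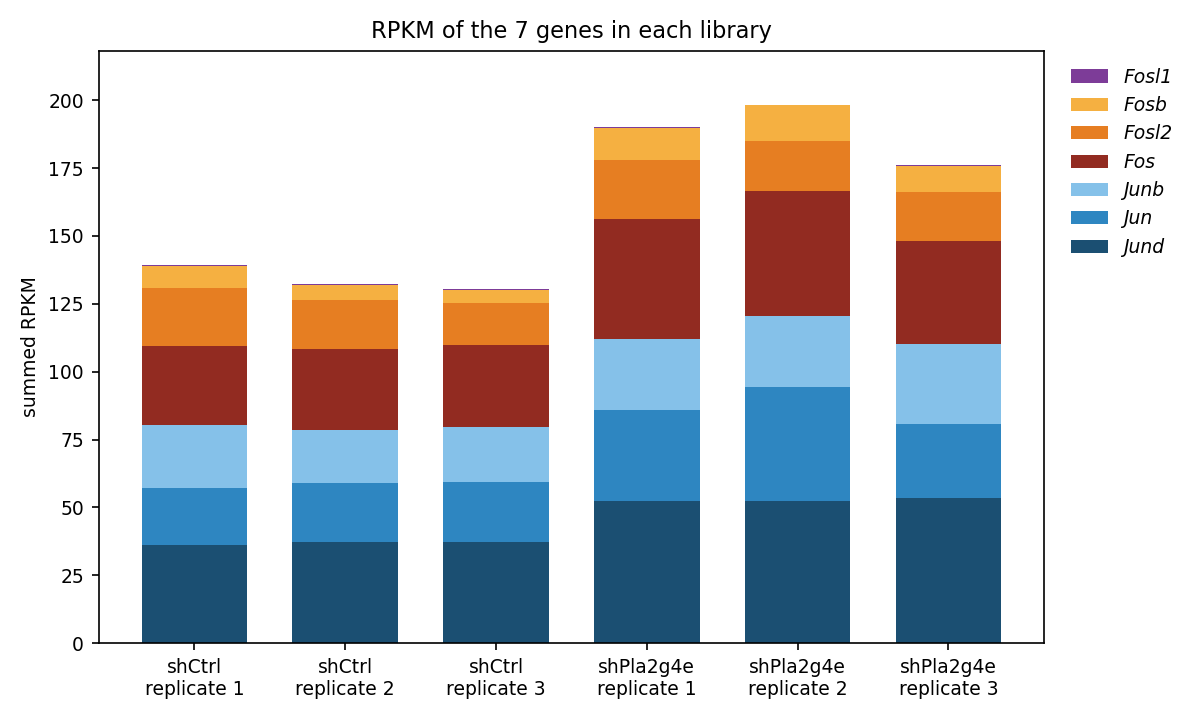
Summed RPKM (vertical axis, from 0) of the 7 genes in each library, with the Jun genes in blue at the base and the Fos genes above them. The sum lies between 130.4 and 139 RPKM in the shCtrl libraries and between 176 and 198 RPKM in the shPla2g4e libraries.

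Both subfamilies were higher. The 4 Fos genes summed to 59.1, 53.8 and 50.7 RPKM in the shCtrl libraries and to 78.2, 77.9 and 65.7 RPKM in the shPla2g4e libraries. The 3 Jun genes summed to 80.3, 78.7 and 79.7 RPKM in shCtrl and to 112, 120.5 and 110.3 RPKM in shPla2g4e. Neither sum overlapped between the groups. The ratio of the Fos sum to the Jun sum was 0.74, 0.68 and 0.64 in shCtrl replicates 1 to 3 and 0.70, 0.65 and 0.60 in shPla2g4e replicates 1 to 3, lower in shPla2g4e in each same-numbered pair, while the ranges of the groups overlapped.

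The seed of the hairpin was searched for in the members' transcripts, because a hairpin's guide strand can also act on RNAs that match only its bases 2 to 8. The target of sh2 in *Pla2g4e* and the only matching site in a 3′ UTR of a member, that of *Fosl2* in GENCODE vM21, are printed with the site in capitals.
sh2 target: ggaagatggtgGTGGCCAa
Fosl2 site: acagttttgtcGTGGCCAccaggcttctg

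*Fosl2*, whose level differed by less than its spread, held the site once in its 3′ UTR, and *Junb* held it once in its 5′ UTR. No annotated transcript of *Fos*, *Fosb*, *Fosl1*, *Jun* or *Jund* held it. Over all genes tested with a coding transcript and a 3′ UTR, 11.96% of 15697 held it in the 3′ UTR.

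Of 31 other immediate early genes 5 rose at an adjusted p under 0.01 and none fell in edgeR's quasi-likelihood test, limma-voom or DESeq2 (4 were lower at an unadjusted p under 0.05), with a median log2 fold change of 0.27. The 5 genes are 16.1% of the list. Among all genes tested 2.48% were called higher, and among those with a mean log2 CPM of 3 or more, where 29 of the 31 lie, 11.1% were called in either direction. *Dusp1*, a phosphatase that switches off MAP kinases, stood at 36.2, 31.0 and 34.2 CPM in shCtrl and at 68.3, 76.6 and 70.2 CPM in shPla2g4e (log2 fold change 1.08, SE 0.090, adjusted p = 1.72e-06 in edgeR's quasi-likelihood test). *Btg2*, which restrains cell division, rose from 18.2 ± 0.75 to 34.2 ± 8.02 CPM, and *Per1*, a clock gene, from 173 ± 24.9 to 266 ± 10.8 CPM (SD, n = 3 each). *Ier5* and *Nr4a1*, named after their values were seen, made up the rest, with log2 fold changes of 0.62 and 0.47. The call of *Nr4a1* was lost without shCtrl replicate 1 (adjusted p = 0.0138 in edgeR's quasi-likelihood test), shCtrl replicate 2 (0.0655), shPla2g4e replicate 1 (0.0276) or shPla2g4e replicate 3 (0.0204). Without shPla2g4e replicate 3, 10 of the 31 were called higher and 2 lower. With the replicate block, 14 were called higher and 4 lower, in a fit that called 6.50% and 9.02% of all genes.

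Several genes that are often used beside *Fos* to mark neuronal activity had estimates below 0 that did not pass the test. They, and *Arc*, *Nptx2*, *Sik1* and *Bdnf*, are named here after their values were seen. Of the 31 listed genes, 23 had estimates above 0 and 8 had estimates below 0. *Egr1*, a zinc finger factor, stood at 209.7, 229 and 214 CPM in the shCtrl libraries and at 169, 201 and 169.9 CPM in the shPla2g4e libraries. All shPla2g4e libraries were lower, at a log2 fold change of −0.28 (SE 0.086) whose adjusted p of 0.046 did not pass in edgeR's quasi-likelihood test, and passed with the replicate block (adjusted p = 4.56e-04). *Egr3* stood at 160.4 ± 15 and 120.4 ± 28.5 CPM, and *Npas4*, a factor that answers calcium selectively, at 75.2 ± 12 and 56.7 ± 12.6 CPM (SD, n = 3 each). Their adjusted p were 0.0495 and 0.0578, and with the replicate block 7.11e-07 and 1.25e-05. Both also passed with no filter (6.68e-05 and 2.54e-04) and without shPla2g4e replicate 3 (0.00224 and 0.00129). *Arc*, whose protein acts at synapses, went the other way and was higher in every shPla2g4e library (42.7, 43.0 and 43.0 CPM) than in the shCtrl libraries (39.2, 34.9 and 37.3 CPM), with a log2 fold change of 0.21 that did not pass (adjusted p = 0.138 in edgeR's quasi-likelihood test). *Nptx2*, *Sik1* and *Bdnf* were also higher in every shPla2g4e library, with log2 fold changes of 0.50, 0.44 and 0.31. Their adjusted p of 0.0165, 0.0138 and 0.0406 in edgeR's quasi-likelihood test did not pass. With the replicate block they passed (adjusted p = 5.1e-09, 4.86e-05 and 2.49e-04).

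The difference between *Fos* and *Egr1* was read within libraries, where the scaling cancels. The log2 ratio of *Fos* to *Egr1* reads was −1.61, −1.71 and −1.60 in the shCtrl libraries and −0.70, −0.88 and −0.93 in the shPla2g4e libraries. The groups did not overlap and their means differed by 0.80. The ratio of *Fos* to *Npas4* was also higher in all shPla2g4e libraries, by 0.94 on the log2 scale in the mean. Since the genes were chosen for this pattern, the ratios are a description and were not tested.

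**Figure D3:**
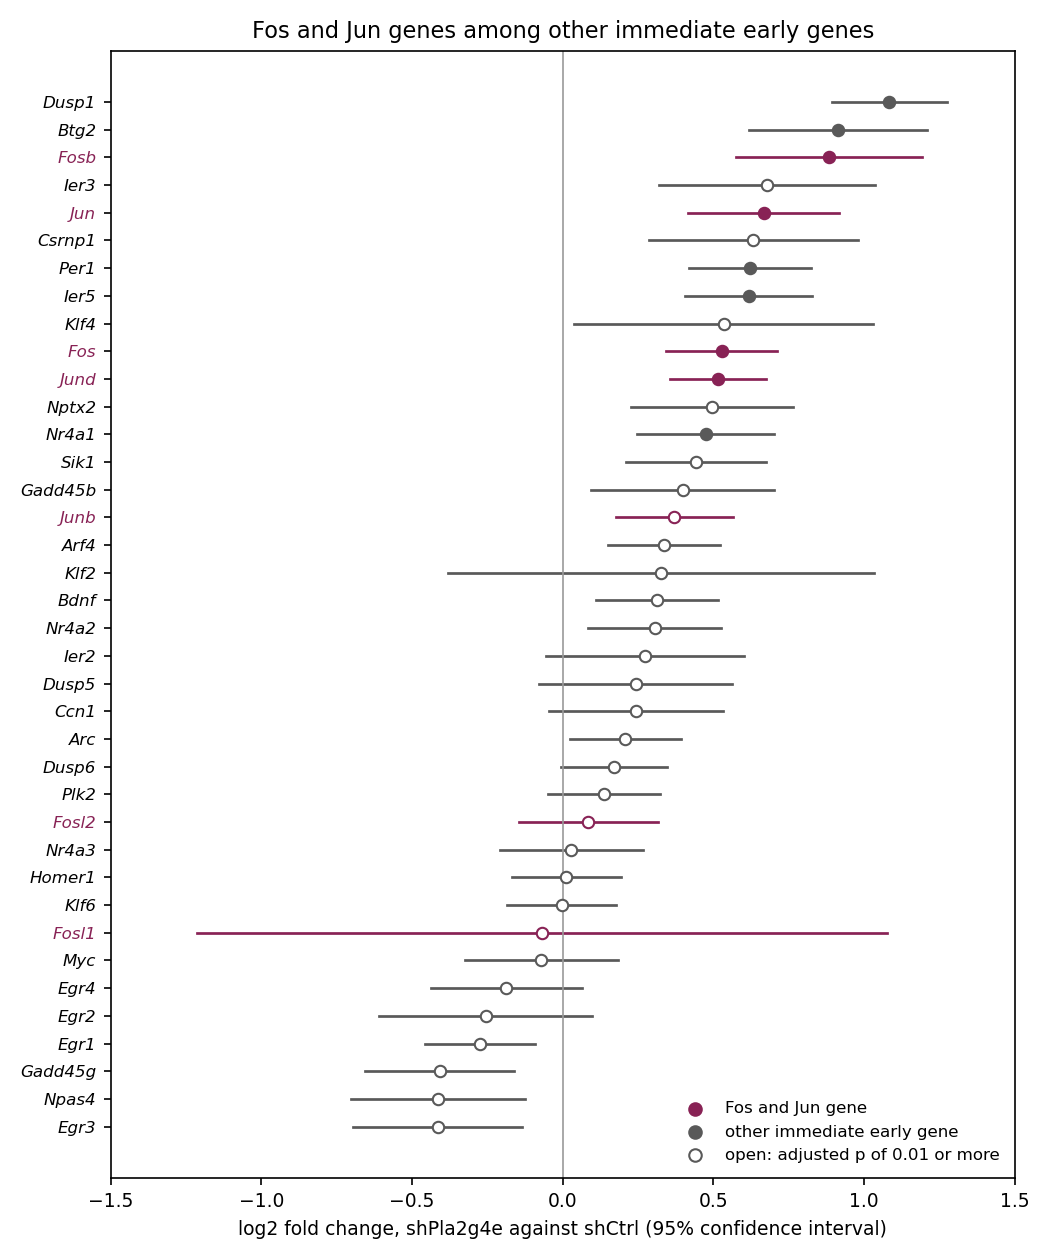
Log2 fold change (horizontal axis, shPla2g4e against shCtrl) with its 95% confidence interval for the 7 Fos and Jun genes (purple) and 31 other immediate early genes (grey), in order of the estimate. Filled points have an adjusted p under 0.01 in edgeR's quasi-likelihood test. *Fosb*, *Jun*, *Fos* and *Jund* lie among the higher genes with *Dusp1* and *Btg2*, and *Egr1*, *Npas4* and *Egr3* lie at the low end.

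Beside the family, 13 other dimer partners of AP-1 were listed and 12 tested, *Batf* having too few reads. Of the 12, *Atf3* alone was called, or 8.33%, near the 6.49% of all genes tested. Among genes with a mean log2 CPM of 3 or more, where 10 of the 12 lie, 11.1% were called in either direction. *Atf3*, a stress-induced factor that pairs with Jun proteins, stood at 8.05, 7.55 and 6.48 CPM in shCtrl and at 15.2, 26.8 and 10.2 CPM in shPla2g4e. The shPla2g4e libraries were all higher and very uneven, with replicate 2 highest and replicate 3 lowest, as for *Jun*. The log2 fold change was 1.25 (SE 0.25, adjusted p = 0.00361 in edgeR's quasi-likelihood test). The call was lost in the robust fit (adjusted p = 0.0694), and without any single shCtrl library or shPla2g4e replicate 2 (adjusted p = 0.0111 to 0.021). The replicate block called 3 of the 12 higher, in a fit that called 6.50% of all genes higher.

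The genes that act on *Fos* and *Jun* from above were described by lists. None of the 6 genes of the serum response factor and its ternary complex partners, which bind the *Fos* promoter, was called by edgeR's quasi-likelihood test, with 0 called by limma-voom, 0 by DESeq2 and 1 at an unadjusted p under 0.05. The median log2 fold change was −0.08. *Srf* itself stood at 29.5 ± 1.22 and 27.2 ± 1.11 CPM (SD, n = 3 each), adjusted p = 0.491, named after its values were seen. Of 9 genes of the CREB family and its coactivators, 2 fell and none rose (2 were higher at an unadjusted p under 0.05 and 0 were called higher by limma-voom or DESeq2). *Crtc1*, a coactivator that enters the nucleus with activity, went from 184 ± 1.57 down to 134 ± 4.05 CPM, and its log2 fold change was −0.46 (edgeR's quasi-likelihood test, adjusted p = 6.14e-04). *Crebbp*, the histone acetyltransferase CBP, fell by 0.33 on the log2 scale (adjusted p = 0.00895), a call lost when any library but shCtrl replicate 3 was left out (adjusted p up to 0.0497). With the replicate block, 3 genes of the list were called lower and 2 higher.

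Of 19 tested genes of the ERK pathway, 1 rose and 2 fell, or 15.8%. All 19, like the 9 CREB genes, had a mean log2 CPM of 3 or more, and 11.1% of the 10958 genes at that level were called in either direction. *Rps6ka6*, the gene of the kinase RSK4, rose from 12.6 ± 1.34 to 24.1 ± 1.91 CPM (log2 fold change 0.93). *Rasgrf2*, a calcium-dependent activator of Ras, went from 148 ± 19.4 down to 81.4 ± 6.70 CPM (log2 fold change −0.87), and *Rps6ka2*, the gene of RSK3, had a log2 fold change of −0.45. The call of *Rps6ka2* was lost without shCtrl replicate 1 (adjusted p = 0.0185 in edgeR's quasi-likelihood test) or shPla2g4e replicate 2 (0.0139). The replicate block called 3 of the 19 higher and 4 lower.

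In the JNK pathway, whose kinases phosphorylate Jun, 5 of 18 genes fell and none rose (0 were higher at an unadjusted p under 0.05, by limma-voom or by DESeq2), against 4.004% of all genes called lower. All 18 also lie at the level where 11.1% of genes were called in either direction. *Map3k5*, the gene of the stress kinase ASK1, stood at 62.4, 62.9 and 61.4 CPM in shCtrl and at 37.3, 22.2 and 34.6 CPM in shPla2g4e (log2 fold change −0.99, adjusted p = 1.91e-04 in edgeR's quasi-likelihood test). *Mapk8*, the gene of JNK1, fell from 205 ± 5.83 to 149 ± 14.9 CPM and *Mapk8ip2*, a JNK scaffold, from 261 ± 19.6 to 190.0 ± 6.63 CPM (SD, n = 3 each). *Mapk10*, the neuronal kinase JNK3, and *Mapk8ip3*, another scaffold, are named after their values were seen and had log2 fold changes of −0.36 and −0.33. The count of 5 became 1 without shCtrl replicate 2, *Map3k5* being the gene left, 3 without shCtrl replicate 1 or any single shPla2g4e library, 3 with library size alone, and 8 with the replicate block.

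Among 13 genes that act in the turnover of AP-1 mRNA and protein, 2 fell and none rose (1 was higher at an unadjusted p under 0.05 and 0 by limma-voom or DESeq2), with a median log2 fold change of −0.23. The 2 genes are 15.4% of the list, near the 11.1% called among all genes with a mean log2 CPM of 3 or more, where all 13 lie. With the replicate block, 5 were called lower and 1 higher, in a fit that called 9.02% and 6.50% of all genes. *Fbxw7*, the substrate receptor of a ubiquitin ligase that marks Jun proteins for degradation, stood at 358, 311 and 309.8 CPM in shCtrl and at 174, 132 and 175 CPM in shPla2g4e. The groups were far apart (log2 fold change −1.02, SE 0.10, adjusted p = 1.14e-05 in edgeR's quasi-likelihood test). *Khsrp*, an RNA-binding protein of AU-rich elements such as those of *Fos* mRNA, went from 160.5 ± 16.9 down to 107 ± 2.81 CPM, and its log2 fold change was −0.58 (adjusted p = 3.25e-04). *Fbxw7* is the gene of this list that moved most, and the seed site of sh2 was found in the 3′ UTR of 3 of its 4 coding transcripts. It is printed with the 7 matching bases in capitals.
Fbxw7 site: ctgtactcccaGTGGCCAaacttatttat

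The same search covered *Khsrp*, *Crtc1*, *Crebbp*, *Atf3* and *Dusp1*. A 3′ UTR site was also found in coding transcripts of *Khsrp*, *Crtc1* and *Crebbp*, which were called lower. *Atf3*, called higher, held a 3′ UTR site too, and *Dusp1*, called higher, held none. Whether sh2 acts on any of these genes was not tested, and a 3′ UTR site was found in 11.96% of all the genes searched.

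**Figure D4:**
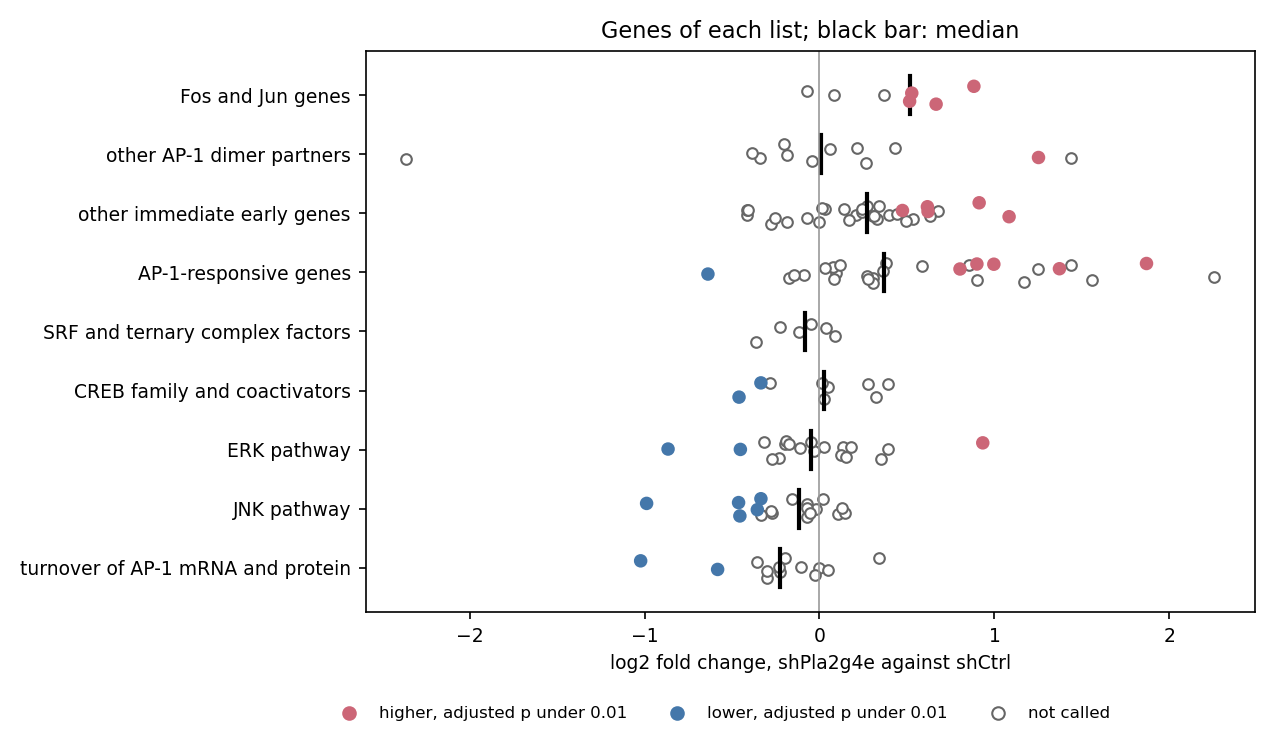
Log2 fold change (horizontal axis, shPla2g4e against shCtrl) of each tested gene in 9 lists, 1 point a gene, with a black bar at the median of each list. Red points were called higher and blue points lower at an adjusted p under 0.01 in edgeR's quasi-likelihood test. The medians are 0.52 for the Fos and Jun genes, 0.37 for AP-1-responsive genes, −0.11 for the JNK pathway and −0.23 for turnover.

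Genes whose promoters or enhancers are known to answer AP-1 were read from a list of 30, of which 28 were tested. Of these 5 rose and 1 fell, with a median log2 fold change of 0.37. The share called was 21.4%, against 6.49% of all genes tested and 11.1% of those with a mean log2 CPM of 3 or more, where 16 of the 28 lie. *Pdyn*, the gene of the opioid precursor prodynorphin, stood at 6.60, 7.05 and 7.28 CPM in shCtrl and at 26.2, 26.6 and 23.6 CPM in shPla2g4e. It was the gene of the list with the smallest p (log2 fold change 1.87, SE 0.12, adjusted p = 1.68e-07 in edgeR's quasi-likelihood test). *Penk*, the gene of proenkephalin, stood at 13.6, 10.2 and 12.8 CPM in shCtrl and at 33.5, 35.6 and 25.3 CPM in shPla2g4e, and *Scg2*, the gene of secretogranin II, rose from 620.1 ± 93.6 to 1082 ± 56.5 CPM. *Cd44*, which also rose, and *Hmox1*, which fell, are named after their values were seen, with log2 fold changes of 0.90 and −0.64. Several of these promoters are also known to answer CREB. The call of *Hmox1* was lost without shCtrl replicate 1, shCtrl replicate 3 or shPla2g4e replicate 1, with library size alone and in the robust fit. Of the list, 3 were called higher without shCtrl replicate 2 or 3, 7 without shPla2g4e replicate 3, and 10 with the replicate block, which called 6.50% of all genes higher.

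The genes whose profile over the 6 libraries lay closest to each member were found among 10957 candidates, by the root mean square difference of log2 CPM after centring each gene on its own mean. For *Fos* they were *Scrn3*, *Eaf1* and *Peg3*, at differences of 0.033, 0.041 and 0.044 on the log2 scale. For *Jun* they were *Ccdc115*, *Cd9* and *Ftl1* (0.038 to 0.056), for *Jund* *Siae*, *Ganc* and *D030056L22Rik* (0.032 to 0.038), and for *Junb* *Pnrc1*, *Psmg1* and *Crim1* (0.025 to 0.041). *Fosb* had no neighbour as close, its nearest being *Loxl2*, *Lrrc32* and *Arhgap10* at 0.076 to 0.091. *Fosl2* was closest to *Hcn4*, *Gabrb2* and *Ldlrad4* (0.024 to 0.048), none of which was called. No member was among the 3 nearest genes of another member. Most neighbours are not known as AP-1 or immediate early genes, and a likeness over 6 libraries of 2 groups is a description only.

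Cell type markers were read beside the members. The libraries held 17054717 to 23570180 reads on genes, the lowest being shPla2g4e replicate 3. Of 12 astrocyte markers 4 fell and none rose (1 was higher at an unadjusted p under 0.05 and 0 by limma-voom or DESeq2), among them *Aqp4*, *Slc4a4* and *Gja1*, and their summed level was 3788, 4204 and 4913 CPM in shCtrl replicates 1 to 3 and 2674, 2401 and 4143 CPM in shPla2g4e replicates 1 to 3. The 4 genes are 33.3% of the list, against 4.004% of all genes called lower. Among genes with a mean log2 CPM of 3 or more, where 11 of the 12 lie, 11.1% were called in either direction. The shPla2g4e library with the most astrocyte marker RNA, replicate 3, was the one with the lowest *Fos*, *Fosb* and *Jun*. *Jund* and *Junb* were highest in that library. The count of 4 astrocyte markers called lower became 8 without that library, 2 without shPla2g4e replicate 1 or 2, 1 in the robust fit and 9 with the replicate block. The block called 9.02% of all genes lower and 6.50% higher. With the replicate block, with no filter or without shCtrl replicate 3, 1 astrocyte marker was called higher. Of 15 pan-neuronal markers 2 rose and 4 fell, with summed levels of 7354 to 8112 CPM in shCtrl and 6681 to 7265 CPM in shPla2g4e, and without shCtrl replicate 2 1 rose and 2 fell. The share called was 40%, against 6.49% of all genes tested and 11.1% at a mean log2 CPM of 3 or more, where all 15 lie. None of 10 tested microglial, 12 oligodendrocyte lineage or 13 endothelial, mural and fibroblast markers was called by edgeR's quasi-likelihood test, limma-voom or DESeq2, with 4, 1 and 3 of them at an unadjusted p under 0.05, and the replicate block called 1 microglial and 1 oligodendrocyte marker lower and 3 endothelial, mural and fibroblast markers higher. The microglial genes summed to 23.7 to 35.2 CPM and 25.3 to 26.7 CPM. *Tmem119* and *Itgam* of the microglial list had too few reads to be tested, and the endothelial *Cldn5* had 0 reads in every library. Of 12 heat shock genes, listed as a sign of stress, *Hspa5* rose by 0.47 and *Dnaja1* fell by 0.32 on the log2 scale. They are 16.7% of the list, against 6.49% of all genes tested and 11.1% at a mean log2 CPM of 3 or more, where 9 of the 12 lie. The call of *Hspa5* was lost without shCtrl replicate 2 and that of *Dnaja1* without any library but shCtrl replicate 3. In shPla2g4e replicate 3 the astrocyte sum lay within the range of the shCtrl libraries, but single markers did not all do so. There *Aqp4* (95.1 CPM), *Slc4a4* (124 CPM), *Gja1* (83.5 CPM) and *Slc1a2* (1135 CPM) lay below every shCtrl library. *Aldh1l1* (129 CPM) and *S100b* (3.09 CPM) lay above every shCtrl library. The part of these differences in the levels of the Fos and Jun genes was not tested.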

How the data were processed

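RNA-seq of 6 libraries was analysed from the counts the authors deposited, whole reads per gene with no normalization. Per the labels and file headers, reads were checked with FastQC 0.11.8, aligned with STAR 2.7.0d to GRCm39 and counted over GENCODE vM28 exons with featureCounts 1.6.0. Symbols were matched for 52081 of 55357 gene IDs, and IDs without one held 0.286 to 0.387% of reads. Genes with at least 6 reads in 1 library were kept (21876), scaled by TMM and tested with edgeR 4.0.16 (quasi-likelihood, R 4.3.3), called at a Benjamini-Hochberg adjusted p under 0.01. CPM and RPKM were computed from the counts. Alternatives were limma 3.58.1 (voom), DESeq2 1.42.0, other scalings and filters, a robust fit, a replicate block and leaving out each library. Replicate numbers come from the sample titles, and libraries of the same number deviated together (r = 0.39, 0.19 and 0.46 over 10958 genes, a description across genes), so they were taken as pairs in the block. The test was tried on simulated counts.

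The members and all lists were chosen with earlier results of these data known. The rule for named genes took the 7 members, *Pla2g4e*, in each list the called genes with the smallest p (at most 3), and the 3 genes nearest in profile to each member whose mean log2 CPM reached 3. Other genes named in the text were chosen after their values were seen, and a gene counted in a list is not reported here by name. Promoter windows are from RefSeq and transcripts from GENCODE vM21, both on GRCm38, and coordinates were not moved between builds. Depth was 17054717 to 23570180 reads, and intervals cover the spread between libraries.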

Additional observations from a re-analysis of the deposited data

How the results depend on the processing

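*Fos*, *Jun* and *Jund* were higher and called in each of 16 alternative settings, *Fosb* in 15, being lost in the robust fit, and *Junb* was higher in 16 and called in 8. Leaving out 1 library gave log2 fold changes of 0.47 to 0.61 for *Fos*, 0.75 to 1.12 for *Fosb*, 0.49 to 0.80 for *Jun*, 0.31 to 0.45 for *Junb* and 0.50 to 0.52 for *Jund*, −0.46 to 0.31 for *Fosl1*, −0.02 to 0.21 for *Fosl2*, −0.06 to 0.21 for *Hcn4* and −0.01 to 0.19 for *Ldlrad4*. *Fosl1* turned positive with limma-voom (0.14), with library size alone (0.012), and without shCtrl replicate 1 (0.31), shCtrl replicate 2 (0.03) or shPla2g4e replicate 3 (0.04), at 6 to 20 reads a library. *Fosl2* turned negative without shCtrl replicate 3 (−0.024) or shPla2g4e replicate 1 (−0.0075), as did *Hcn4* (−0.062 and −0.025), and *Ldlrad4* turned negative without shCtrl replicate 3 (−0.0082). The cause was not tested.

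Over all genes, 876 were called lower and 543 higher. The counts were 1360 and 989 with no filter, 1973 and 1422 with the replicate block, 1599 and 1214 at an adjusted p of 0.05, and 449 to 932 and 246 to 681 without 1 library, where fewer libraries were fitted. With library size alone 609 were lower and 796 higher, and the median over all genes moved from 0.03 to 0.10 on the log2 scale. Among the lists, DESeq2 called 10 other immediate early genes higher, 4 turnover genes lower and 3 heat shock genes lower, against 5, 2 and 1, and library size alone called 11 immediate early genes higher. Replicate numbers as a block moved *Junb* past the threshold and changed no other member's call. Shares of the family sum changed with the length used: without length, *Fosl2* held 37.8% in shCtrl and *Jund* 13.3%.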
